A study of Dugesia japonica with 157 samples.

Results

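The anterior and posterior poles of the planarian flatworm Dugesia japonica were compared here in 1 tomo-seq series, in which an animal is cut into consecutive thin sections and each section becomes its own RNA-seq library. The members are 16 of the 157 libraries deposited: sections 1 to 7, the first of the 78 sections cut from anterior to posterior, and sections 70 to 78, the last. Both sets came from whole animals of strain AF, for which the labels name no treatment of the animals and no age. Polyadenylated RNA was taken up with Direct-TRI and sequenced with Lasy-Seq version 1.1, a multiplexed method for many small samples. The labels name no replicate animals, so sections of 1 series stand in for replicates: p-values measure how sections vary, not how animals do. Position and library order cannot be told apart, as libraries are numbered in the order of the sections. Where fewer cells of a type and less RNA per cell would give the same lower count, a section's library cannot tell them apart.

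Planarians are known for regenerating a complete animal from small fragments, which they do from adult stem cells called neoblasts. The front end carries the brain and the eyes. Muscle cells along the body express position-dependent signals, and Wnt signalling, which is high toward the tail and held back at the head by secreted inhibitors such as notum, sets which end is rebuilt after a cut. The front tip holds a small cluster of cells, the anterior pole, that organises head patterning, and the tail tip holds cells that express wnt1. The files do not pair transcript identifiers with gene names, so marker genes of the poles, brain, eye, muscle and gut could not be looked up, the labelled positions could not be checked against them, and transcripts are given by identifier, with no role. Each identifier is called a gene below, and where rows are near-identical copies their reads may have been split.

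The 4 shallowest of the 78 sections lay near the ends of the animal. Sections 1 and 2 (70569 and 136970 counts) and sections 76 and 77 (116674 and 79382 counts) held under 20% of the median total of the 78 columns, 772604 counts, and were left out of the tests. The 5 kept anterior pole sections, 3 to 7, held 216691, 542671, 1001557, 1755117 and 1706806 counts. The 7 kept posterior pole sections, 70 to 75 and 78, held 175749 to 893718 counts (median 249187). The anterior pole had the higher median depth, and section 73 stood apart as the deepest of the posterior pole.

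**Figure D1:**
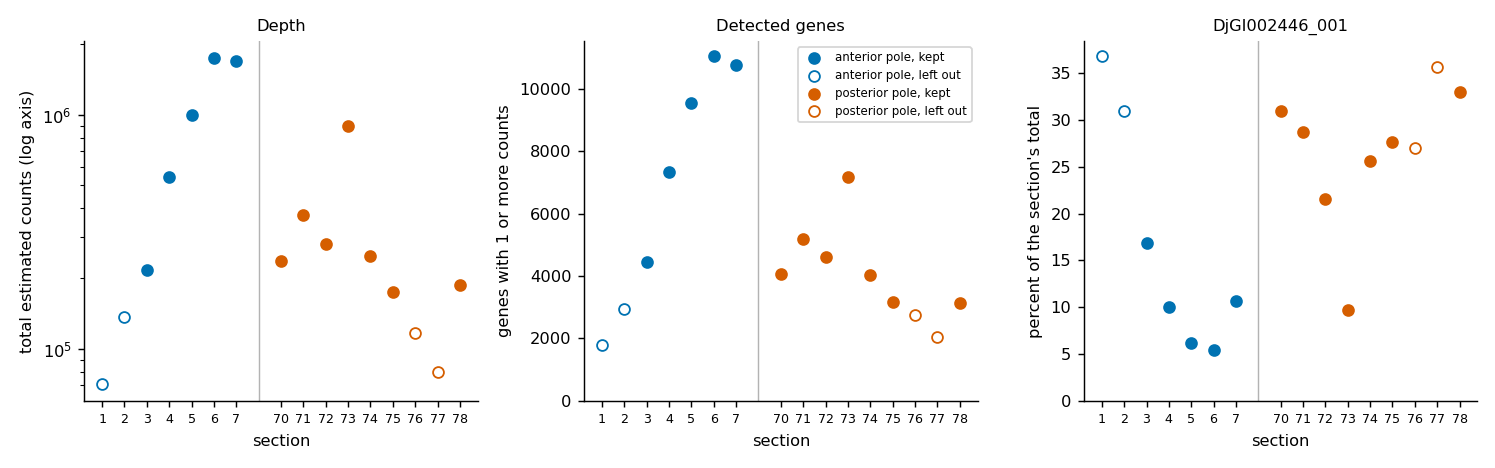
Total estimated counts (left, log axis), genes with 1 or more counts (middle) and the percent of counts held by DjGI002446_001 (right) in each pole section. Anterior pole sections 1 to 7 are on the left of each panel and posterior pole sections 70 to 78 on the right; filled points are kept and open points are the 4 sections left out. Total and detected genes are highest in sections 5 to 7, while the share of DjGI002446_001 runs the other way, at 36.8% in section 1 and 5.40% in section 6.

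More different genes were detected in anterior pole sections 3 to 7 than in the posterior pole, also after each section was thinned to 1 total. After each kept section was thinned at random to 175749 counts, the total of the shallowest, 7220 ± 1840 genes had a count in anterior pole sections (SD, n = 5) and 4088 ± 907 in posterior pole sections (SD, n = 7). The anterior sections ranged over 4339 to 8788 genes and the posterior sections over 3089 to 5715, so section 3, the most anterior one kept, lay within the posterior range. The exact two-sided permutation test over sections gave p = 0.00379, with 0.00126 the smallest it can give with 5 against 7. The thinned counts still moved with the original depth: section 3, the shallowest of the kept anterior sections, had the lowest anterior value, sections 5 to 7 had 8116 to 8788, and section 73, the deepest of the posterior pole, had the posterior maximum of 5715. The part depth plays was not tested. With sections under 50% of the median total left out, 4 anterior sections and 1 posterior section remain, and the difference was 2377 genes, at an exact p of 0.20, the smallest that 4 against 1 can give.

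Counts were also less concentrated in sections 3 to 7 than in the posterior pole. The 50 most abundant genes of each section held 45.4% ± 4.69 of the counts in the anterior pole (SD, n = 5; 40.8% to 52.4%) and 59.4% ± 6.44 in the posterior pole (SD, n = 7; 47.2% to 66.1%), an anterior minus posterior difference of -14.03 percentage points with an exact two-sided permutation p of 0.00505. The left-out sections 1 and 2 did not share the low values, at 69.4% and 64.8%. The transcript DjGI002446_001, chosen for description after its values were seen, held the largest single share of counts in each of these sections. It took 16.8%, 9.99%, 6.21%, 5.40% and 10.6% of the counts in sections 3 to 7, against 9.71% to 33.0% in the posterior pole, a difference of means of -15.5 percentage points. Among genes measured at both poles its log2 fold change, anterior over posterior pole, was -1.57 with an adjusted p of 0.0209 by edgeR's quasi-likelihood test, and the poles overlapped. The lowest posterior share belonged to section 73, the deepest, and the 2 sections left out at the front, which are the shallowest there, had 36.8% and 30.9%. Its share thus moved with section depth as well as with the end of the animal, and the part depth plays was not tested.

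Sections of the anterior pole resembled one another, and those of the posterior pole did so less. Similarity was taken as Pearson's r of log2(CPM + 1) after each gene was centred over the 12 kept sections, where CPM is a gene's counts scaled to depth with TMM library factors (edgeR's cpm). Centring sets the sections against their common mean, so values near or below 0 are usual. The mean r was 0.158 over the 10 pairs within the anterior pole and -0.00732 over the 21 pairs within the posterior pole, against -0.209 over the 35 pairs between poles. Within-pole pairs exceeded between-pole pairs by 0.255, with an exact two-sided permutation p of 0.00126 over 792 splits of the sections, the smallest possible. The genes used were the 8455 tested between the poles, whose count filter admitted more genes through anterior sections alone than through posterior sections alone. How far that filter sets the excess was not tested. The permutation also treats sections as exchangeable, though each pole is a run of neighbouring sections. Section 73 was no closer to its own pole (mean r -0.0833) than to the anterior pole (-0.0827). Without sections under 50% of the median total, which leaves 4 anterior sections and 1 posterior section, the excess was 0.146 at an exact p of 0.20, the smallest possible there.

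The sections left out at the front did not resemble the rest of the anterior pole. When all 16 sections were centred together, sections 1 and 2 had a mean r of -0.168 and -0.101 to the kept anterior pole sections and -0.0524 and -0.0813 to the kept posterior ones. Sections 76 and 77 had a mean r of -0.165 and -0.195 to the anterior pole and -0.0181 and -0.0366 to the posterior pole. These 4 are the shallowest of the 78 sections, and how far depth sets these values was not tested.

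**Figure D2:**
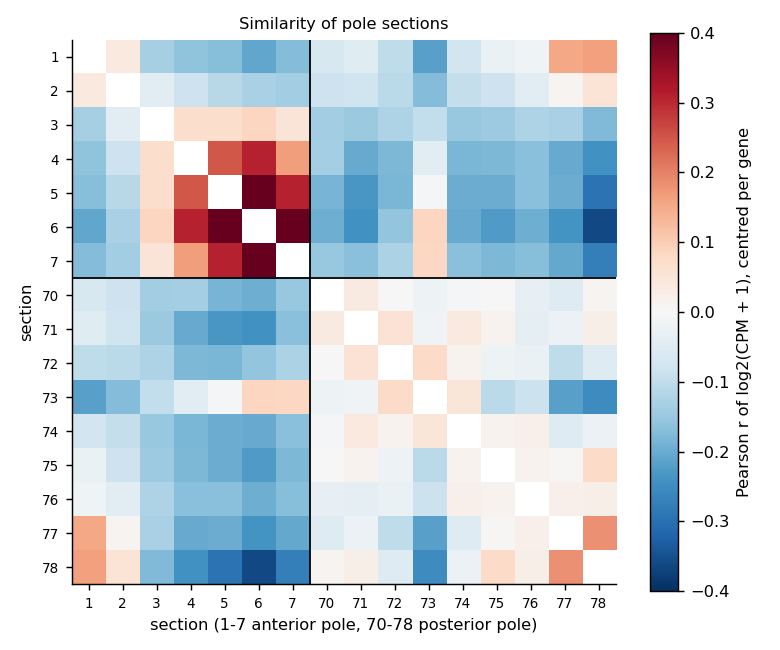
Pearson's r of centred log2(CPM + 1) between every pair of the 16 pole sections, anterior sections first, with the diagonal blank. The block of sections 4 to 7 is the most alike, section 73 is paler than its neighbours against the anterior pole, and sections 1 and 2 do not join the anterior block.

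Expression was compared first in genes that could be measured at both ends. Of all genes, 2752 had 5 or more counts in at least 3 kept sections of each pole, a restriction added after the data had been seen. In these, 43 genes were higher in the anterior pole (1.56% of those tested) and 50 were higher in the posterior pole (1.82%) by edgeR's quasi-likelihood F-test at a Benjamini-Hochberg adjusted p under 0.05. The median log2 fold change, anterior over posterior pole, was 0.13 over all 2752 genes, a value that the TMM scaling itself draws toward 0, and 0.46 by limma-trend. The balance of calls depended on the setting: limma-trend called 111 and 67 genes, and sections 3 to 5 against 71 to 73 gave 8 and 32. At an unadjusted p under 0.05, 521 genes passed. Called genes differed widely: the median absolute log2 fold change was 2.89 for those higher in front and 2.93 for those higher behind.

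Many of the called genes did not overlap between the 2 ends, section by section. They were called for their difference between these same sections, so this is a description and adds no support to the calls. All kept anterior pole sections lay above all kept posterior pole sections for 111 of the 2752 genes (4.03%), of which 34 were among the 43 called. The opposite order held for 33 genes (1.20%), of which 25 were among the 50 called. The counts of 43 and 50 calls follow single sections. Without section 4, 5, 6 or 7 the anterior count was 14, 14, 20 and 25 and the posterior count 17, 14, 18 and 33. Without section 71 they were 25 and 26, and without section 72 the anterior count was 26. Leaving out section 73, the deepest posterior section, gave 70 and 81.

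DjGI017566_001 was the clearest of the genes higher in front. It stood at 897, 2287, 1712, 1696 and 1083 CPM in sections 3 to 7, against 23.4 to 183 CPM in the posterior pole (median 47.8). Every kept anterior section exceeded every kept posterior section. Its log2 fold change was 4.23 ± 0.53 (SE, n = 5 and 7) with an edgeR adjusted p of 0.000559, and the call held in all 18 alternatives, with adjusted p from 1.65e-11 to 0.0202. Along the body it was highest in front and declined as far as sections 53 to 60: the zone mean was 1535 CPM in the anterior pole, 575 CPM in sections 8 to 14, 182 CPM in sections 15 to 26, 125 CPM in the middle trunk (sections 27 to 52), 84.1 CPM in sections 53 to 60 and 158 CPM in sections 61 to 69, with 83.2 CPM in the posterior pole. Sections 61 to 69 stood above the middle trunk again. Sections 1 and 2 broke the order with 0 counts each, while the left-out sections 76 and 77 held 61 together.

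DjGI006490_001 had the largest fold change of this set in front, and a less secure one. Its values were 3.33, 317, 416, 154 and 246 CPM in sections 3 to 7, against 0 to 46.4 CPM in the posterior pole (median 0). Section 3 lay within the posterior range, and 4 of the 7 posterior sections had no count. The log2 fold change was 4.26 ± 1.09 (SE, n = 5 and 7; edgeR adjusted p = 0.0405), and 12 of the 18 alternatives lost the call, with adjusted p up to 0.404, among them leaving out section 4, 5, 6, 7, 70, 71, 72, 74 or 75.

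DjGI019486_001 and DjGI017671_001 led the genes higher behind. DjGI019486_001 had 0, 2.86, 4.05, 4.34 and 17.2 CPM in sections 3 to 7, against 5.06 to 808 CPM in the posterior pole (median 249). Section 75, at 5.06 CPM, fell within the anterior range. The log2 fold change was -5.55 ± 1.01 (SE, n = 5 and 7; edgeR adjusted p = 0.00531). DjGI017671_001 had 6.67, 22.9, 34.8, 8.19 and 5.00 CPM in sections 3 to 7, against 55.7 to 1941 CPM in the posterior pole (median 305), with no overlap. Its log2 fold change was -5.07 ± 0.86 (SE, n = 5 and 7; edgeR adjusted p = 0.00385).

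Neither gene was at its highest in the posterior pole. DjGI019486_001 averaged 301 CPM there, against 1143 CPM in sections 61 to 69 and 869 CPM in the middle trunk. DjGI017671_001 averaged 584 CPM in the posterior pole, against 2174 CPM in sections 61 to 69 and 1494 CPM in the middle trunk. Both were at intermediate levels in sections 8 to 14, at means of 154 CPM and 333 CPM, so their level was lowest in sections 3 to 7 and the pole comparison reads that low level. The left-out section 2 went against this order, with 137 CPM of DjGI019486_001 and 195 CPM of DjGI017671_001. Their calls held in all 18 alternatives, with adjusted p at most 0.0270 for DjGI019486_001 and 0.0164 for DjGI017671_001.

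**Figure D3:**
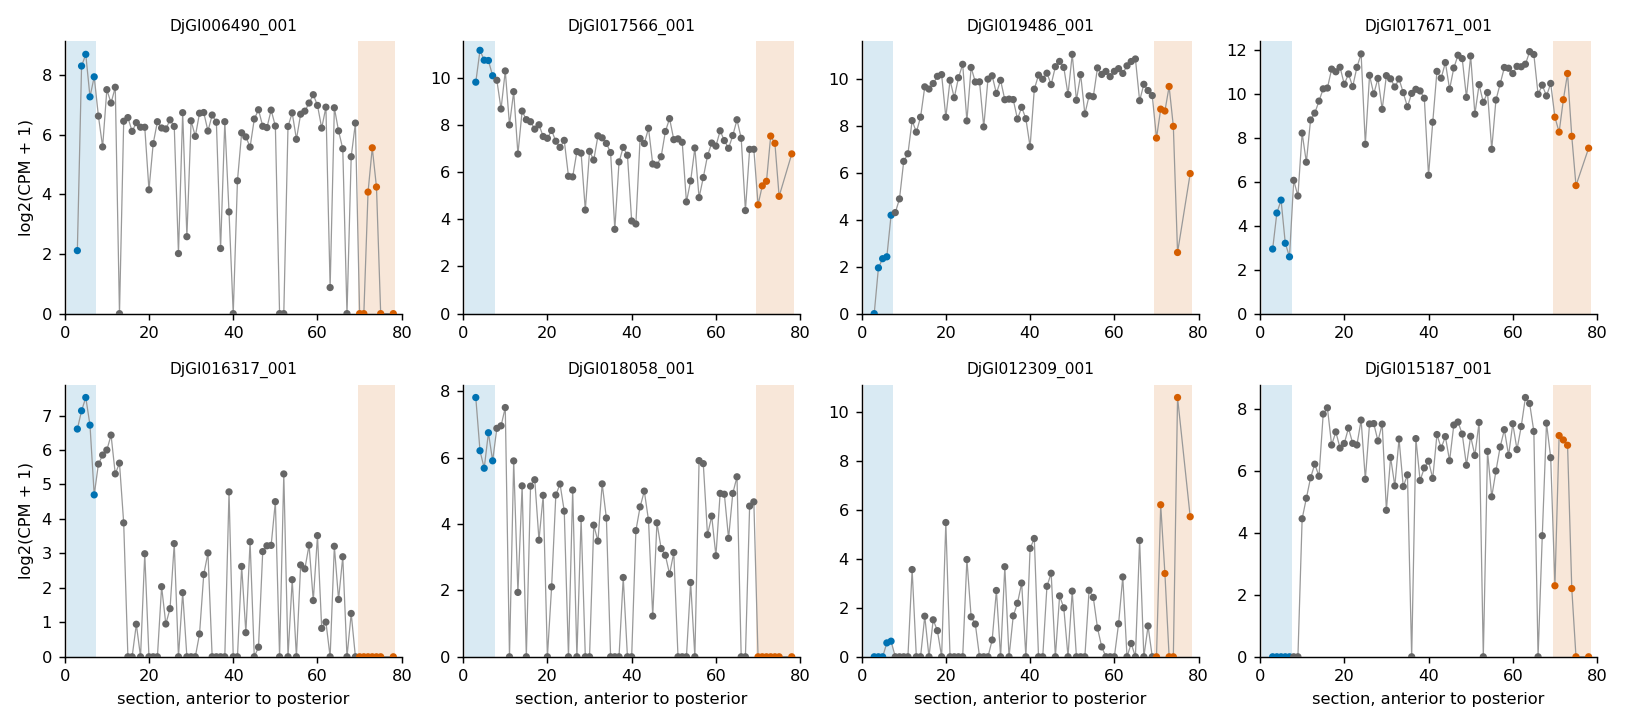
Level of 8 named genes, as log2(CPM + 1), in each of the 74 kept sections from anterior (left) to posterior (right); blue marks the anterior pole and orange the posterior pole. The top row holds genes measured at both poles and the bottom row the largest fold changes over all tested genes. DjGI017566_001 and DjGI016317_001 decline from the front, DjGI019486_001, DjGI017671_001 and DjGI015187_001 are low in front and present along the trunk, and DjGI012309_001 rests on section 75.

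Where along the body the called genes were highest differed between the lists. Of the 43 genes higher in front, 39 (90.7%) had their highest zone mean in the anterior pole, where 26.2% of all 2752 genes did. Of the 50 genes higher behind, 9 (18.0%) had their highest zone mean in the posterior pole, as did 18.0% of all 2752 genes, and 29 (58.0%) had it in sections 61 to 69, against 17.4% of all. The longer list of 186 genes called higher behind over all 8455 tested genes gave other shares: 92 (49.5%) were highest in the posterior pole, against 13.1% of all tested, and 59 (31.7%) in sections 61 to 69, against 9.92%. The lists were chosen from 2 of these zones, so these shares are a description. In the middle trunk the 50 genes stood a median 0.26 above their posterior pole level on the log2(CPM + 1) scale, while the median difference in the anterior pole was -2.84. The 43 genes stepped down with distance instead, with median differences from the anterior pole of -1.13 in sections 8 to 14, -1.95 in the middle trunk and -2.81 in the posterior pole.

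**Figure D4:**
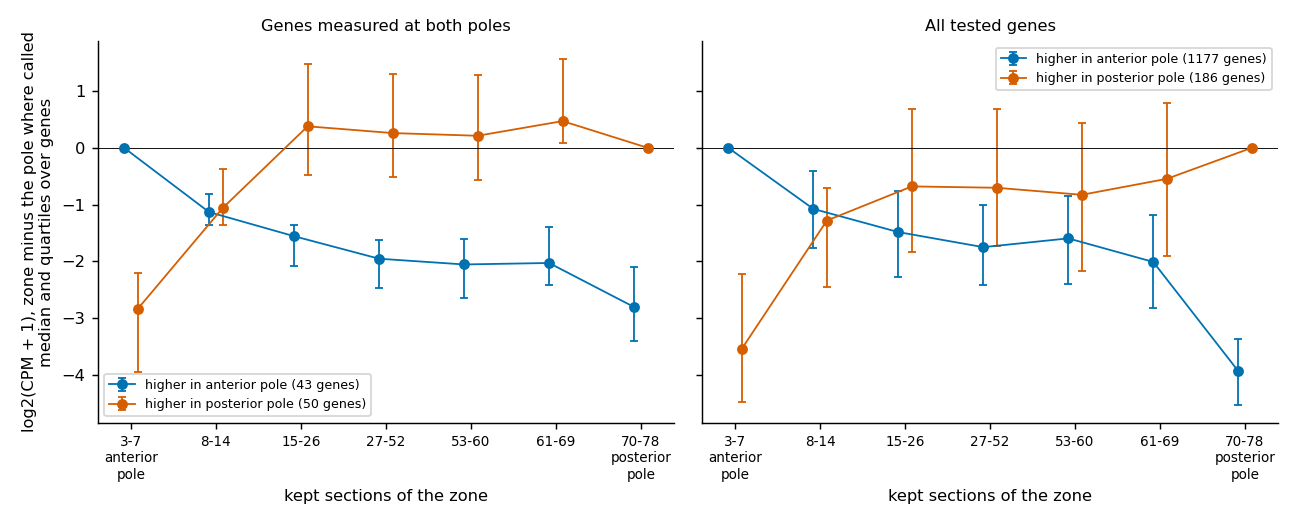
Median and quartiles, over called genes, of log2(CPM + 1) in each of 7 zones minus that in the pole where the genes were called higher; zones run from anterior (left) to posterior (right). Genes higher in front (blue) are lower in every other zone. Genes higher behind (orange) lie slightly above their posterior level in sections 15 to 69 in the left panel and at medians of -0.55 to -0.83 there in the right panel; in both they are lower in sections 8 to 14 (-1.06 and -1.28) and lowest in sections 3 to 7.

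Over all genes that reached 5 counts in 3 or more of the 12 kept pole sections, the picture was lopsided toward the front. Of 8455 genes tested, 1177 were higher in the anterior pole (13.9%) and 186 were higher in the posterior pole (2.20%) by the edgeR test at an adjusted p under 0.05, and 2265 passed at an unadjusted p under 0.05. The median log2 fold change over all tested genes was 0.86, so the scaling did not centre the genes on 0, and it was 0.53 with DESeq2 size factors. Of the 1177 genes, 1003 were among 1632 that passed the count filter through anterior sections alone. No kept posterior section held 5 counts of these, so the filter favours a call in front for them. It does not fix the direction, as fewer counts in a shallow posterior section can stand for a similar level. In the posterior pole, 42 genes passed through posterior sections alone and 31 of them were called. No kept posterior section held a count of 814 of the 1177 genes.

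The split differed under settings that even out or model depth. With each section thinned to the same total, 474 genes were higher in the anterior pole and 163 in the posterior pole. With the log2 section total as a covariate the counts were 153 and 78. Between 6 sections of more similar depth, 3 to 5 against 71 to 73, a choice made after seeing the data, they were 34 and 51. Single sections moved the counts too: the anterior count was 631 without section 5, 564 without section 6, 633 without section 7, 308 without section 74 and 664 without section 75, and the posterior count was 83, 85 and 98 without section 5, 6 or 74.

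**Figure D5:**
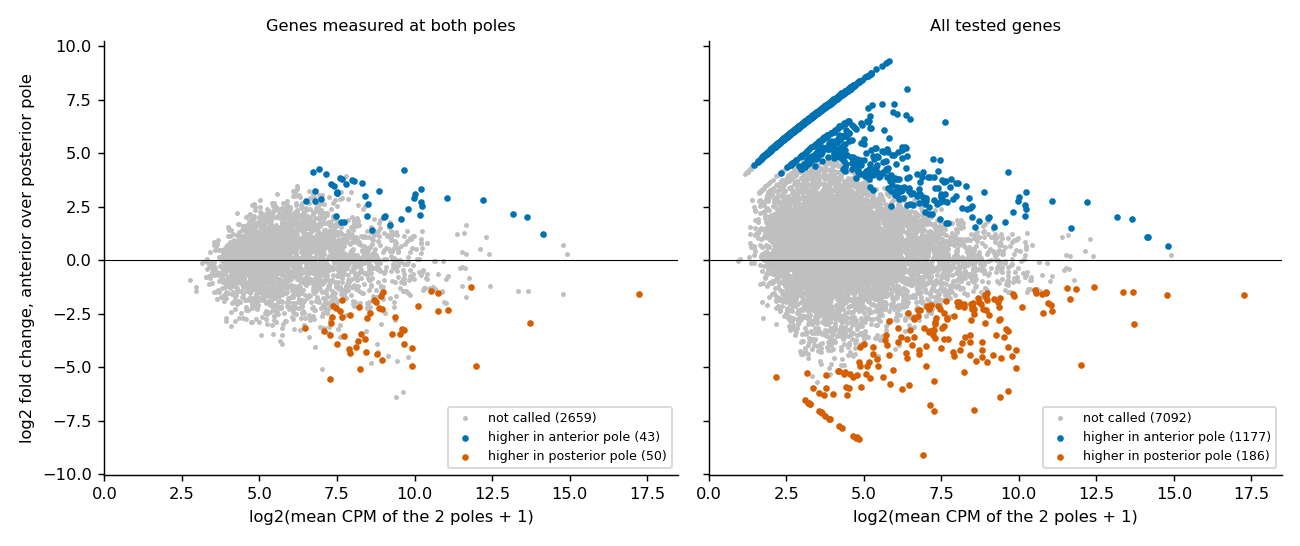
Log2 fold change, anterior over posterior pole, against log2(mean of the pole means in CPM + 1) for the 2752 genes measured at both poles (left) and all 8455 tested genes (right); each point is a gene, coloured where called. The left panel has 43 and 50 calls, the right panel 1177 and 186, and the diagonal line at the upper edge of the right panel is formed by genes with no count in the posterior pole.

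On the same values, all kept anterior pole sections lay above all kept posterior pole sections for 453 of the 8455 genes (5.36%), 324 of them called. All kept posterior pole sections lay above for 37 genes (0.438%), 32 of them called. The count filter, which admitted 1632 genes through anterior sections alone and 42 through posterior sections alone, bears on this split as on that of the calls. Of first parts of identifiers with 2 or more called rows, all 94 had their called rows in a single direction. With 1177 calls in front and 186 behind, most sets of called rows would share a direction without any link between them. The files do not say whether such rows are isoforms or copies, and copies that share reads would move together.

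The lists were chosen for their difference between these sections, so the portions of counts they held are a description. The 1177 genes higher in front held 25.5% of the anterior pole's counts and 8.44% of the posterior pole's. The 186 genes higher behind held 14.4% of the anterior pole's counts and 43.1% of the posterior pole's. Of the first list, 795 were under 30 CPM in the anterior pole, while 20 of the 186 were under 30 CPM in the posterior pole. Transcript lengths were not used, so these levels are not comparable between single genes.

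DjGI016317_001 had the largest fold change in front. It stood at 96.7, 140, 183, 105 and 25.0 CPM in sections 3 to 7, 615 counts in all, and had no count in any of the 9 posterior pole sections. Against a floor of 3 counts over the kept posterior pole it was at least 83.2-fold higher, and the edgeR adjusted p was 0.00132. It stayed high just behind the head tip, with a mean of 50.4 CPM in sections 8 to 14, and averaged 1.86 CPM in sections 15 to 26. Scattered counts recurred further back, in 14 of 26 middle trunk sections (mean 5.40 CPM, at most 38.6 CPM) and 6 of 8 sections from 53 to 60 (mean 4.36 CPM). The left-out section 2 held 18 counts of it. Of 26 alternatives run, 24 could test the gene, and its call was lost in 2 of these. They were sections under 50% of the median total left out (log2 fold change 10.2) and odd-numbered sections (log2 fold change 9.29, edgeR adjusted p = 0.126). The gene could not be tested in sections 1 to 4 against 75 to 78 or in even-numbered sections.

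DjGI018058_001 was at 223, 72.9, 50.2, 107 and 58.8 CPM in sections 3 to 7 and also had no count in any of the 9 posterior pole sections. It was at least 68.6-fold higher in the anterior pole (edgeR adjusted p = 0.00164). It recurred along the body, with zone means of 73.9 CPM in sections 8 to 14, 8.69 CPM in the middle trunk and 20.7 CPM in sections 61 to 69. The same 2 alternatives lost the call, of the 24 of 26 that could test it. The log2 fold change was 9.56 with the 50% minimum total and 9.41 in odd-numbered sections (edgeR adjusted p = 0.113). This gene and DjGI016317_001 passed the count filter through anterior sections alone.

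DjGI015187_001 was called higher behind with no count in any kept anterior section. The left-out section 2 held 1 count. The posterior pole held 191 counts at 0 to 141 CPM (median 3.91), which puts it at least 157-fold higher in the posterior pole (edgeR adjusted p = 0.0167). Only sections 71, 72 and 73 carried more than 1 count there, at 141, 127 and 113 CPM. Its mean was 105 CPM in the middle trunk and 148 CPM in sections 61 to 69. Of 26 alternatives run, 18 could test the gene, and 1 of these, limma-trend, lost the call (adjusted p = 0.0691). Without section 71, 72 or 73 the gene had too few counts to be tested. It also went untested in odd-numbered and in even-numbered sections, in sections 1 to 4 against 75 to 78, with a 50% minimum total and with a stricter filter.

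DjGI012309_001 had the largest fold change behind, and most of it came from 1 section. Section 75 held 304 of its 346 posterior pole counts, at 1539 CPM, while the posterior median was 9.56 CPM and the anterior pole held 2 counts in sections 6 and 7. The ratio of pooled CPM, posterior over anterior, was 426, with an exact Poisson interval (95%) of 118 to 3518 for the lower count. The edgeR adjusted p was 0.00771. In the 17 of 26 alternatives that could test the gene, the adjusted p ranged over 2.60e-10 to 0.505. It was 0.111 by limma-trend and 0.505 with the section total as a covariate. Without section 71, 75 or 78, and in other settings with fewer sections or a stricter filter, the gene had too few counts to be tested.

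Sections inside the poles, which the pole tests did not use, carried part of the same order. Sections 8 to 14, behind the anterior pole, were tested against sections 61 to 69, before the posterior pole, at totals of 306746 to 1056266 counts and 264969 to 2590011 counts. Of 10075 genes tested, 76 were higher behind the anterior pole (0.754%) and 147 were higher before the posterior pole (1.46%) by the edgeR test, and 1267 passed at an unadjusted p under 0.05. The smaller count was 49, 46 and 46 without section 8, 61 or 69.

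Most pole differences kept their direction there. Of the 43 genes measured at both poles and higher in front, 42 had the same sign in the neighbouring sections (97.7%, against 56.0% of all genes tested there), and 5 were called (11.6%, against 0.754%). Of the 50 higher behind, 43 had the same sign (86.0%, against 44.0% of all genes tested), and 31 were called (62.0%, against 1.46%). No gene of either list was called in the opposite direction. The medians were smaller: the median log2 fold change was 0.80 in the neighbouring sections for genes with a median of 2.89 at the poles, and -1.42 for genes with a median of -2.93 at the poles. The lists were chosen for a large difference between the poles, so smaller medians in other sections would follow from that choice alone.

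Over all tested genes the share was lower. Of the 1177 genes higher in the anterior pole, 971 could be tested in the neighbouring sections. Of these, 767 had the same sign (79.0%, against 56.0% of all genes tested there) and 32 were called (3.30%, against 0.754%). Of the 186 higher in the posterior pole, 173 could be tested. Of these, 124 had the same sign (71.7%, against 44.0%) and 56 were called (32.4%, against 1.46%). Given the other way, the 32 were 42.1% of the 76 neighbour calls, and the 56 were 38.1% of the 147. Of all genes tested between the poles, 13.9% and 2.20% were on the 2 lists.

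DjGI016249_001 and DjGI014810_001 led the genes higher behind the anterior pole. DjGI016249_001 ranged over 12.1 to 82.1 CPM in sections 8 to 14 (median 59.5), against 1 count in all of sections 61 to 69. The ratio of pooled CPM was 527, with an exact Poisson interval (95%) of 94.5 to 20806 for the lower count, and the edgeR adjusted p was 5.69e-06. DjGI014810_001 ranged over 77.1 to 398 CPM in sections 8 to 14 (median 210), against 6 counts in sections 61 to 69, at a log2 fold change of 7.91 ± 0.82 (SE, n = 7 and 9; edgeR adjusted p = 1.01e-06). Both were called in all 21 alternatives. In the anterior pole DjGI014810_001 had counts in 2 of 5 sections and DjGI016249_001 in 3 of 5. DjGI016249_001 was also called between the poles (edgeR adjusted p = 0.0342). It had no count in the kept posterior pole and passed the count filter of that test through anterior sections alone, so this call adds no support.

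DjGI000648_001 and DjGI000648_002, which share a first identifier part, led the genes higher before the posterior pole. Neither had a count in sections 8 to 14, and they were at least 59.7-fold and at least 58.5-fold higher in sections 61 to 69. Section 68 stood far above the others, at 360 and 377 CPM, over medians of 14.2 and 6.56 CPM. The edgeR adjusted p were 0.0182 and 0.0275, and 0.0719 and 0.0969 without section 68. The fold bounds cover counting error only. Neither passed the test between the poles (log2 fold changes -1.48 and -2.47, adjusted p 0.644 and 0.416).

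The difference between the pole effect and the neighbour effect was tested itself, as an interaction in 1 edgeR fit over the 4 groups, an alternative added after seeing the data. Of 11926 genes, 5 passed at an adjusted p under 0.05 (0.0419%), and 2285 at an unadjusted p under 0.05. In all 5 the difference was larger in size at the poles. No gene passed in the edgeR fit when section 3, 4, 5 or 6 was left out, while 1892 to 2228 had an unadjusted p under 0.05 there. Without section 73, 60 passed, and the counts by limma-trend and by DESeq2 were 8 and 119.

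The 4 sections left out for depth were not used by the tests and hold few counts of the same genes. Sections 1 and 2 together held 207539 counts and sections 76 and 77 together 196056. Of 41 genes with any count there among the 43 higher in front, 30 (73.2%) had the higher pooled CPM in sections 1 and 2, against 47.6% of all genes measured at both poles. Of the 50 genes higher behind, 25 (50.0%) had the higher pooled CPM in sections 76 and 77, against 52.4% of all, so no difference in that direction was detectable in them at this depth. The longer lists gave other shares. Of 301 genes with a count there among the 1177, 208 (69.1%) were higher in sections 1 and 2, against 50.3% of all tested. Of 160 among the 186, 91 (56.9%) were higher in sections 76 and 77, against 49.7%.

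What the 2 poles shared was tested against the middle trunk, sections 27 to 52, whose totals were 268616 to 12945391 counts. Of 14609 genes, 141 were higher at both poles on average (0.965%) and 973 were higher in the middle trunk (6.66%) by the edgeR test, and 3928 passed at an unadjusted p under 0.05. The median log2 fold change over all tested genes, poles over middle trunk, was -0.67. Each pole was above the middle trunk for 128 of the 141, and each was below it for 931 of the 973. Neither pole held a count of 312 of the 973, and the middle trunk was the deeper zone: without the middle sections deeper than every kept pole section, 161 and 321 genes passed. Counts also followed single sections, at 643, 577 and 632 genes higher in the middle trunk without section 3, 4 or 5, and 91 and 90 higher at the poles without section 6 or 75.

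DjGI018592_001 and DjGI016845_001 were trunk genes with no count in any pole section. DjGI018592_001 had a median of 73.7 CPM in the middle trunk (0 to 216 CPM, 23 of 26 sections), and was at least 205-fold lower in the anterior pole and at least 83.1-fold lower in the posterior pole. DjGI016845_001 had a median of 55.1 CPM (0 to 154 CPM, 23 of 26 sections) and was at least 159-fold lower in the anterior pole and at least 64.7-fold lower in the posterior pole. Their edgeR adjusted p were 2.17e-07 and 7.12e-08, and both calls held in all 18 alternatives. Both passed the count filter through middle trunk sections alone and were named for their fold change on the same values, so these p-values are a description. They were also nearly absent between trunk and tail, with 4 and 5 counts in all of sections 61 to 69.

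DjGI014573_001 and DjGI002600_001 led the genes higher at both poles, by far less. DjGI014573_001 had 153, 336, 463, 453 and 361 CPM in sections 3 to 7 and 0 to 184 CPM in the posterior pole (median 3.91), against a middle trunk median of 10.5 CPM. Its log2 fold change was 2.99 ± 0.53 (SE; n = 5, 7 and 26; edgeR adjusted p = 9.34e-05). The posterior median was below that of the middle trunk, and section 74 held the posterior maximum. Over all tested genes it was itself called higher in the anterior than in the posterior pole (log2 fold change 3.09, edgeR adjusted p = 0.0342). Among genes measured at both poles it was not called (log2 fold change 3.17, edgeR adjusted p = 0.0872). DjGI002600_001 had 0, 44.3, 49.4, 21.7 and 0.555 CPM in sections 3 to 7 and 0 to 159 CPM in the posterior pole (median 30.4), against a middle trunk median of 1.17 CPM. Its log2 fold change was 2.92 ± 0.75 (SE; n = 5, 7 and 26; edgeR adjusted p = 0.0108, and 0.0631 without section 74).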

How the data were processed

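The authors deposited estimated counts per transcript identifier and section (25566 identifiers, 78 anterior-posterior columns). The submitters' processing notes name Salmon with no version, BWA 0.7.17-r1188, fastp 0.21.0 and bcl2fastq 2.20.0. What each tool did, and the transcripts it was run against, is not given in the sources used here. Of all values, 430 (0.0216%) were not whole, and all were rounded. Columns were read as the section whose number stands before the suffix. For sections 1 to 7 the column names, with punctuation ignored, also equal the descriptions of other sections, so these rest on the exact reading.

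Sections under 20% of the median total were left out. A gene was tested where 3 or more kept sections held 5 counts of it, with edgeR 4.0.16 (R 4.3.3, quasi-likelihood F-test, TMM factors, Benjamini-Hochberg over all genes of a test). Log2 fold changes are anterior over posterior pole, sections 8 to 14 over 61 to 69, or both poles over middle trunk, with the SE read from the F statistic. Printed CPM use TMM factors over all 78 columns. Bounds on a fold use a floor of 3 counts over the group. Intervals and floors cover counting error only. Alternatives used DESeq2 1.42.0, limma 3.58.1, other filters, scalings and section sets. The code was tested on simulated counts. The named genes were taken for every test, 2 in each direction, by absolute log2 fold change, from calls that averaged 10 CPM or more in the higher group, had counts in 50% or more of its kept sections and kept their sign in odd-numbered and in even-numbered sections. For both poles, each pole had to lie on the same side of the middle trunk. The genes of the interaction were named because fewer than 6 passed. Members and lists were chosen with earlier results of these data known. The dorsal-ventral and right-left tables were not used.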

Additional observations from a re-analysis of the deposited data

Results flagged for a closer look

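In 11 cases 1 section stood far from the others of its group by Dixon's test. Its nominal rate of about 1 in 20 groups flagged by chance assumes normally distributed values. CPM with many empty sections need not meet that, so the chance rate here is not known and the flags are a description. In the posterior pole, DjGI012309_001 had 1539 CPM in section 75 over a group median of 9.56 CPM, DjGI014573_001 and DjGI002600_001 had 184 CPM and 159 CPM in section 74, and DjGI006490_001 and DjGI017671_001 had 46.4 CPM and 1941 CPM in section 73, whose total of 893718 counts was itself far above the other posterior pole sections. In the anterior pole, DjGI019486_001 had 17.2 CPM in section 7, the section nearest the trunk. In sections 61 to 69, DjGI000648_001 and DjGI000648_002 had 360 CPM and 377 CPM in section 68, DjGI014810_001 had 8.13 CPM in section 69, and DjGI016249_001 had its single count, 0.505 CPM, in section 62.

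In 5 genes the pole difference was larger in size than the difference between sections 8 to 14 and 61 to 69, by the edgeR interaction test with Benjamini-Hochberg adjustment. DjGI001691_001 was higher in front, at 78.8 to 197 CPM in the anterior pole and 0 to 3.91 CPM in the posterior pole, and averaged 20.1 CPM in sections 8 to 14 and 25.3 CPM in sections 61 to 69. Its log2 pole difference minus log2 neighbour difference was 7.23 (adjusted p = 0.0323). DjGI018724_001 had no count in the kept anterior pole and 0 to 61.9 CPM in the posterior pole, with means of 81.9 CPM in sections 8 to 14 and 76.8 CPM in sections 61 to 69, at -7.46 (adjusted p = 0.0323). DjGI017744_001 averaged 281 CPM in the anterior pole and 7849 CPM in the posterior pole, at -5.15 (adjusted p = 0.0361). Sections 75 and 78 held 37735 CPM and 13154 CPM of it, and the other kept posterior sections held 193 to 1075 CPM. DjGI016610_001 averaged 116 CPM in the anterior pole and 1367 CPM in the posterior pole, at -4.38, and DjGI000212_002 averaged 57.0 CPM in the anterior pole and 1856 CPM in the posterior pole, at -3.80 (adjusted p = 0.0323 for both). All 5 lost the call without section 3, 4, 5 or 6.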

How the results depend on the processing

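No named gene and no single value changed sign under the alternatives run, but which pole had more calls did change. Counts of genes, given as anterior and posterior pole, were 1177 and 186 for the poles. The larger count was the posterior one with a 50% minimum total, in sections 3 to 5 against 71 to 73, in sections 1 to 4 against 75 to 78 and in odd-numbered and even-numbered sections. The counts were 469 and 354 by DESeq2 (57.0% of calls anterior, against 86.4%), 153 and 78 with the section total as a covariate, 354 anterior with no filter on low counts, 37 and 91 with a 50% minimum total, 299 posterior with the spread estimated over all kept sections, 474 anterior after thinning, and 34 and 51 in sections 3 to 5 against 71 to 73. They were 1 and 4 in sections 1 to 4 against 75 to 78, 0 and 2 in odd-numbered sections (544 at an unadjusted edgeR p under 0.05) and 0 and 1 in even-numbered sections (345 at an unadjusted p under 0.05). The cause was not tested. Every setting in which the posterior count was the larger used fewer than the 12 kept sections. The 50% minimum total left 5 sections, and sections 1 to 4 against 75 to 78 left 4. Sections 3 to 5 against 71 to 73, the odd-numbered set and the even-numbered set held 6 each. Leaving out 1 section gave 308 to 1419 anterior and 83 to 218 posterior.

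For genes measured at both poles (43 and 50), the counts were 126 and 211 by DESeq2, 111 and 67 by limma-trend, 20 anterior with the total as a covariate, and 8 and 32 in sections 3 to 5 against 71 to 73. Leaving out 1 section gave 14 to 70 and 14 to 81. In the neighbouring sections (76 and 147), 374 were higher before the posterior pole by DESeq2 and, with the total as a covariate, 264 were higher behind the anterior pole and 142 before the posterior pole, which turns the balance, and leaving out 1 section gave 46 to 75 and 118 to 185. For both poles against the middle trunk (141 and 973), 1678 were higher in the middle with DESeq2 size factors, 60 higher at the poles by DESeq2, 505 higher at the poles with the total as a covariate, 616 higher in the middle with a filter of 5 counts in 50% of a group's sections, and 321 without the deepest middle sections. Leaving out 1 section gave 90 to 141 and 577 to 1413. The interaction (5 genes) gave 130 with the total as a covariate, 8 by limma-trend and 119 by DESeq2, and 0 to 60 with 1 pole section left out.

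With a 50% minimum total, the pole separation was 0.146 and the difference in detected genes 2377, each with an exact permutation p of 0.20, the smallest that setting can give. It leaves 4 anterior sections and 1 posterior section, whose spread is then taken from the anterior pole in the fits. The share of the 50 most abundant genes passed in all 15 alternatives run for it (exact permutation p at most 0.0177), but the 50% minimum total was not among them. Of the 8455 genes tested between the poles, 2752 were measured at both poles. The part that section depth plays in this was not tested. No paired analysis was possible because sections carry no replicate number shared between groups.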

Other observations

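The most abundant transcripts overlapped between the ends. Of the 50 genes of highest mean CPM at each pole, 29 were shared, and the 71 genes in either set held 16 that were higher in the anterior pole and 22 that were higher in the posterior pole by the edgeR test over all tested genes. Of all genes tested, 13.9% and 2.20% were.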
